A study of Homo sapiens with 12 samples.

Results

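Transcript levels of 34 genes of the endoplasmic reticulum (ER) unfolded protein response were followed across 12 RNA sequencing libraries. The genes were taken by symbol from a list of sensors, ER chaperones, disulfide isomerases and factors of ER-associated degradation (ERAD), with some genes of translocation and export, and all 34 were among the 20030 genes of the deposited table. The cells were HepG2, an established human hepatoma line that secretes many liver proteins. Each of the 4 groups had 3 libraries, from cells given DMSO (the vehicle), 8HQ, FAC, or 8HQ and FAC together (8HQ_FAC below), and the labels give 10 µM and 6 h for all groups. The label puts the 10 µM before DMSO, so it is not clear which agent it refers to. The labels use the letters without expansion; among iron researchers 8HQ is the common short form of 8-hydroxyquinoline, a membrane-permeable metal chelator, and FAC that of ferric ammonium citrate, a source of iron. The study's title concerns labile intracellular iron and the iron-regulating liver hormone hepcidin. All groups share the same cell line, and nothing in the labels ties the 3 libraries of a group to separate cultures. The p-values therefore reflect only how much these samples vary, and that variation may be technical.

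Background on the pathway: proteins bound for secretion fold in the ER, and when unfolded chains gather there, the sensors IRE1 (gene ERN1), ATF6 and PERK signal to the nucleus. IRE1 splices the XBP1 message to the form that codes for an active transcription factor, ATF6 is cut in the Golgi to release its own, and PERK slows translation. XBP1 and ATF6 raise chaperones, disulfide isomerases and the ERAD machinery, which pulls misfolded chains back to the cytosol for the proteasome. Hepatocytes carry a large secretory load and use the pathway routinely. The gene values analysed here do not separate spliced from unspliced XBP1.

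The promoters of these genes are shown first because ATF6 and XBP1 act on a few short elements that many of the listed genes share. RefSeq promoters of GRCh38.p14, from 250 bases before to 50 after each start, were found for 30 of the 34 genes; PDIA3, DERL1, DERL3 and SEC24D were not matched. The ER stress element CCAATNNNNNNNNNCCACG, searched on both strands, lay in 8 of the 30 genes (26.7%) and in 0.0916% of all 27305 genes with a promoter. ER stress element II, ATTGGNCCACG, lay in 3 of 30 (10.0%) and in 0.0696% of all genes. The UPR element TGACGTGG lay in HYOU1 only (3.33% of the 30) and in 0.927% of all genes, and there it overlaps the upstream element II. Such elements were first described in promoters of this kind, that of HSPA5 among them, so their share is a description and not an independent result. Some genes have more than 1 window, 35116 in all for the 27305 genes, and a match in any window counted for its gene. XBP1, PDIA6 and CANX also have a window without a match. The matches are listed with the fixed letters of each element in capitals, 5′ to 3′ on the strand that carries them, with distances counted from the start the window belongs to. Where a site lies in several windows, as for CANX, the distance from 1 start is listed.
CALR, ER stress element, chr19:12938384-12938402, minus strand, 225 to 207 bases before the start: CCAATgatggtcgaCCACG
CANX, ER stress element, chr5:179698778-179698796, plus strand, 151 to 133 bases before the start: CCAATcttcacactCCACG
CRELD2, ER stress element, chr22:49918554-49918572, minus strand, 80 to 62 bases before the start: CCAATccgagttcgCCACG
ERO1B, ER stress element, chr1:236282183-236282201, plus strand, 243 to 225 bases before the start: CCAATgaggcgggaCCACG
HSP90B1, ER stress element, chr12:103930216-103930234, plus strand, 194 to 176 bases before the start: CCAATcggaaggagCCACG
HSP90B1, ER stress element, chr12:103930321-103930339, minus strand, 89 to 71 bases before the start: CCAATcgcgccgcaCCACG
HSPA5, ER stress element, chr9:125241391-125241409, minus strand, 66 to 48 bases before the start: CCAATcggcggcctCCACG
PDIA6, ER stress element, chr2:10812853-10812871, minus strand, 86 to 68 bases before the start: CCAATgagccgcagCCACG
XBP1, ER stress element, chr22:28800603-28800621, minus strand, 52 to 34 bases before the start: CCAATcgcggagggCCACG
HERPUD1, ER stress element II, chr16:56932025-56932035, plus strand, 117 to 107 bases before the start: ATTGGgCCACG
HYOU1, ER stress element II, chr11:119057274-119057284, plus strand, 79 to 69 bases before the start: ATTGGaCCACG
HYOU1, ER stress element II, chr11:119057380-119057390, plus strand, 185 to 175 bases before the start: ATTGGaCCACG
SDF2L1, ER stress element II, chr22:21642114-21642124, minus strand, 188 to 178 bases before the start: ATTGGtCCACG
HYOU1, UPR element, chr11:119057386-119057393, minus strand, 188 to 181 bases before the start: TGACGTGG

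Whole windows are given for 4 genes that carry an element and differ in what they did below: XBP1, HERPUD1, HSPA5 and PDIA6. Capitals mark the whole element on the gene's own strand.
XBP1, chr22:28800520-28800819, minus strand: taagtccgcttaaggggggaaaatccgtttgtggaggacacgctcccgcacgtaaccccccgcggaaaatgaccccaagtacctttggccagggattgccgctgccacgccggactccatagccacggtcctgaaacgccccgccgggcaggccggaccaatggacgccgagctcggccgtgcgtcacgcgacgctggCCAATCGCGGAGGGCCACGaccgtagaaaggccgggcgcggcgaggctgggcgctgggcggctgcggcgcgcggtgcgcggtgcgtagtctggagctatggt
HERPUD1, chr16:56931892-56932191, plus strand: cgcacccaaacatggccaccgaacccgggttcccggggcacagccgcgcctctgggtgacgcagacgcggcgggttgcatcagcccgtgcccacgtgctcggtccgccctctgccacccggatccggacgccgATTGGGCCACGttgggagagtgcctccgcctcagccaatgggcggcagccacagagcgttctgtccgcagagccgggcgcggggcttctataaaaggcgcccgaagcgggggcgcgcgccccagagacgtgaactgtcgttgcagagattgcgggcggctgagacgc
HSPA5, chr9:125241294-125241593, minus strand: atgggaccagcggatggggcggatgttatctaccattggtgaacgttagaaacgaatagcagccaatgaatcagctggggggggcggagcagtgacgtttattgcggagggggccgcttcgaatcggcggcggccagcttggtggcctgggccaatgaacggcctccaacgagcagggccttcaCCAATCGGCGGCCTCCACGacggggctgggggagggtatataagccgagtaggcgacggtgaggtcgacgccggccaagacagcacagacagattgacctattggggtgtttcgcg
PDIA6, chr2:10812736-10813035, minus strand: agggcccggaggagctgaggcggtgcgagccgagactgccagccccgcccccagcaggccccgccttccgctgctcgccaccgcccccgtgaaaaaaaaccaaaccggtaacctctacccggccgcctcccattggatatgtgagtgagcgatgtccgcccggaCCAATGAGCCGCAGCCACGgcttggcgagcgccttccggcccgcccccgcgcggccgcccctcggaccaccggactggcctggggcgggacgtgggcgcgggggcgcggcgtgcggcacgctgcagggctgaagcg

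The values are FPKM as the authors deposited them, that is fragments scaled to the length of the gene model and to the mapped total of the library. Of the 34 genes, 31 reached 1 FPKM in at least 3 libraries and were tested with 10823 genes in all, on log2(FPKM + 1), a scale that understates the change of low genes. EDEM2 stood between 0.278 and 0.786 FPKM, ERO1B between 0.539 and 0.900, and DERL3 was listed at 0 except for 0.0407 in 8HQ replicate 2 and 0.0168 in 8HQ_FAC replicate 2; these 3 were not tested. Every tested member was at 1.55 FPKM or more in every library, so none passed through a single group. Changes are log2 differences between group means with their standard errors (SE), and a gene was called at an adjusted p under 0.05 in limma with Benjamini-Hochberg adjustment over all tested genes, two-sided. Group levels are mean ± SD with n = 3.

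The 8HQ_FAC libraries stood apart as a whole. Their FPKM summed to between 419275 and 427192, against 335508 to 346915 in the other 9, and their depth estimated from the low values was 0.773 to 0.842 of that of DMSO replicate 1, against 0.917 to 1 in the others. On the log2 scale the median change of all tested genes was -0.23 from DMSO to 8HQ_FAC, -0.01 to FAC and 0.01 to 8HQ. Long transcripts fell more than short ones in 8HQ_FAC, with Spearman's rho -0.49 between length and change across 10789 genes and -0.54 across the 31 members, which are genes and not replicates. Changes in 8HQ_FAC are therefore also given as computed under 4 other scalings: quantile normalization, median centring (equal median level in every library), rescaling to equal FPKM sums, and removal of the trend with transcript length. For XBP1, HSPA5, SYVN1, SEL1L and WFS1 they are given relative to the median as well. Hepatocyte markers were above 0 in all 12 libraries, 9 of 9, and summed to 12939 to 13409 FPKM without FAC, 14682 to 15121 in FAC and 20321 to 20925 in 8HQ_FAC. In 8HQ_FAC 7 of the 9 lay above all DMSO libraries and 2, APOB and HNF4A, below them, HNF4A at 28.8 to 30.1 FPKM against 78.5 to 81.3 and APOB at 726 to 775 against 1578 to 1719. Their part in the changes of the members was not tested. Of 11 leukocyte and red blood cell markers, 11 were above 0 in every library without FAC and 4 or 5 in every library with it, and CD3E, TYROBP, S100A8, HLA-DRA and HBB were listed at 0 in all 6 with FAC. FAC and the source of the transcripts listed at 0 cannot be told apart in any comparison of libraries with and without FAC. The summed FPKM of the 11 markers was 1061 to 1222 without FAC, 1177 to 1261 in FAC and 1971 to 1991 in 8HQ_FAC. Nearly all of this sum was LYZ, at 1014 FPKM or more in every library. LYZ was high also where CD3E, TYROBP, S100A8, HLA-DRA and HBB were listed at 0, so the sum does not follow those markers. Of 13 plasma cell and B cell markers, which matter here because such cells are rich in ER proteins, 5 to 9 were above 0 and summed to 68.1 to 80.2 FPKM, nearly all of it SDC1, and TNFRSF17 and FCRL5 were listed at 0 in all 12. Fibroblast markers summed to 1.22 to 2.23 FPKM and endothelial markers to 0.242 to 0.764. In such bulk samples fewer cells of a type and less RNA per cell cannot be told apart.

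The comparison of 8HQ with DMSO asked what the compound alone did to the pathway. XBP1 was lower and no other member was called: 1 of 31 was called lower and 0 higher, where 2.41% of all tested genes were called lower and 2.49% higher. In limma 4 of the 31 had an unadjusted p under 0.05, 2 in each direction. The median change of the members was -0.01 and that of all genes 0.01. For the 30 members not called, the 95% intervals of the log2 change all lay between -0.18 and 0.35, the upper bound being that of DNAJB9.

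The comparison of FAC with DMSO asked the same of FAC alone. All 4 sensors and transcription factors were lower, as were PDIA3, PDIA4 and PDIA6 among the isomerases and HYOU1, CALR, HSP90B1 and DNAJB11 among the chaperones, while all 4 genes of translocation, export and ER calcium were higher. In all, 14 of 31 members were called lower and 8 higher, where 29.2% of all tested genes were lower and 24.8% higher. The median change was -0.10 for the members and -0.01 for all genes. Under all 5 scalings 13 members were called lower and 6 higher. The same held for 22.7% and 20.3% of the 10760 genes tested under all of them. The share of calls that were higher was 36.4% for the members and 46.0% for all genes as deposited, 33.3% and 51.5% with quantile normalization, 43.5% and 59.0% with median centring, 30.4% and 38.3% with equal sums, and 36.4% and 50.1% after removal of the length trend.

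The comparison of 8HQ_FAC with DMSO asked what the agents did in combination. XBP1, the ERAD genes SYVN1, SEL1L and EDEM3 and the wolframin gene WFS1 fell most, the isomerases and SEC61B were higher as deposited, and the chaperones split. In all, 18 of 31 members were called lower and 8 higher, where 56.7% of all tested genes were lower and 27.5% higher, so the split of the members lies near that of all genes. The median change was -0.17 for the members and -0.23 for all genes. The split depends on the scaling: the share of calls that were higher was 30.8% for the members and 32.7% for all genes as deposited, 23.8% and 49.8% with quantile normalization, 69.2% and 63.3% with median centring, 13.3% and 15.4% with equal sums, and 56.0% and 50.8% after removal of the length trend. Under all 5 scalings 8 members were called lower, XBP1, DNAJC3, HERPUD1, SEL1L, SYVN1, EDEM1, EDEM3 and WFS1, and SEC61B was called higher; the same held for 27.4% and 11.9% of all genes.

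**Figure D1:**
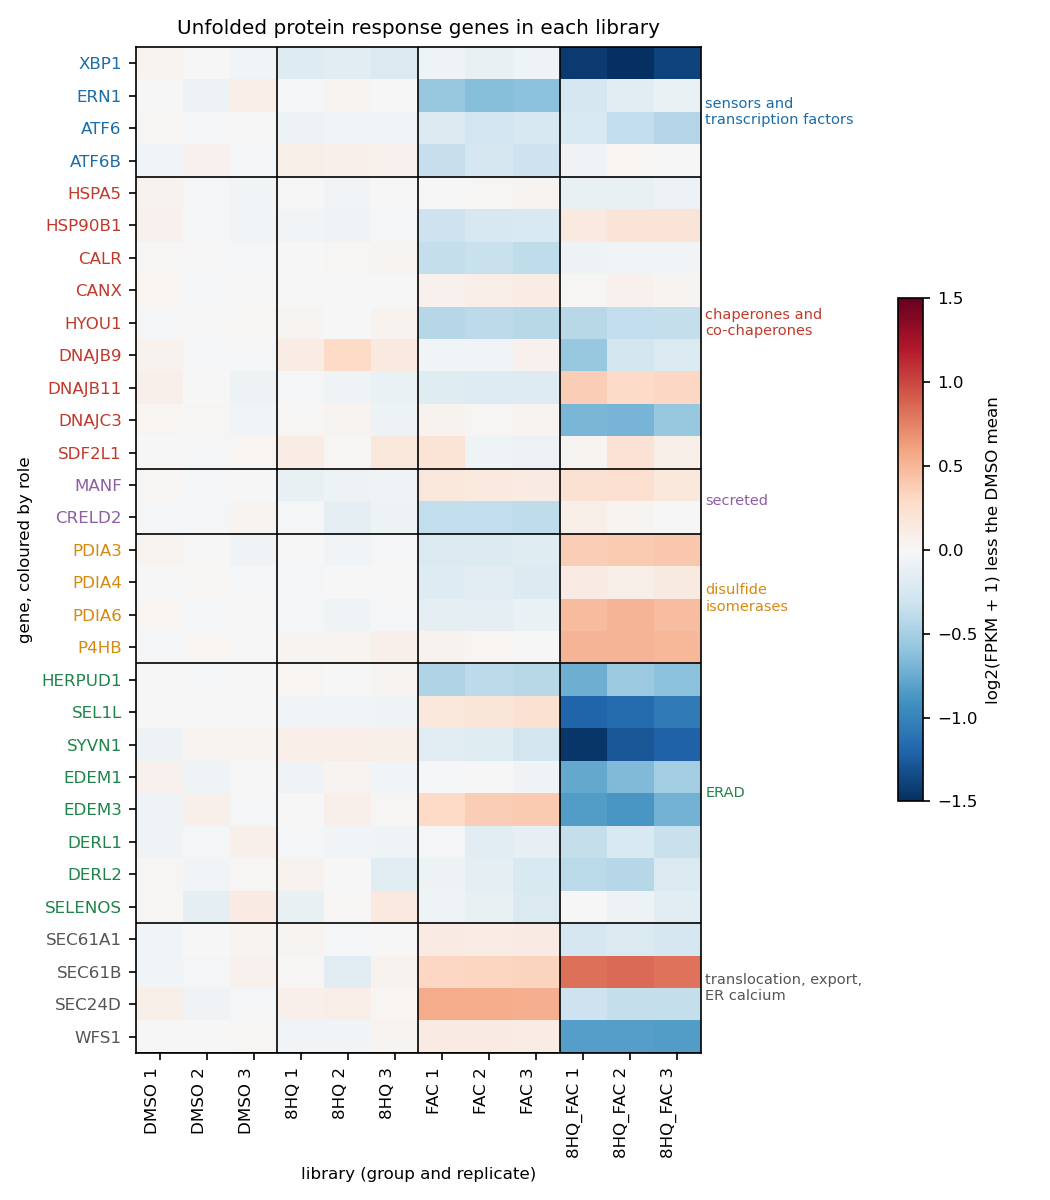
Heat map of log2(FPKM + 1) less the DMSO mean for the 31 tested members (grouped and coloured by role) in the 12 libraries, blue lower and red higher, on a scale from -1.5 to 1.5. The 8HQ columns are pale. The FAC columns are blue for ERN1, ATF6, ATF6B and several chaperones and red for EDEM3, SEC61B and SEC24D. The 8HQ_FAC columns are deep blue for XBP1, SEL1L and SYVN1 and red for the isomerases and SEC61B.

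XBP1, the transcription factor made by IRE1 splicing, was the member that fell most and the one called in every comparison. It stood at 210.5, 205 and 199 FPKM in DMSO, 178, 182 and 176 in 8HQ, 196, 189 and 196 in FAC and 74.9, 72 and 77.5 in 8HQ_FAC. The 8HQ_FAC libraries lay far below all others and the 8HQ libraries below all of DMSO, with no overlap in either case, while all 3 FAC libraries lay just under the lowest DMSO library. From DMSO to 8HQ_FAC it fell by 63.5%, from 205 ± 5.92 to 74.8 ± 2.73 (log2 change -1.44, SE 0.03, adjusted p = 9.33e-15), which is -1.21 relative to the median and -1.77 to -1.02 under the other scalings. With 8HQ it fell by 12.7% (log2 change -0.19, SE 0.03, adjusted p = 0.00209). With FAC the change was small (log2 change -0.08, adjusted p = 0.0422). That call was lost without DMSO replicate 1 or 2, 8HQ replicate 1 or any FAC replicate, with values from -0.06 to -0.09, and with median centring (-0.03), no filter, no variance trend or the replicate block.

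ERN1, the IRE1 kinase and endonuclease, was a low transcript. It stood at 3.52, 3.29 and 3.86 FPKM in DMSO, 3.47, 3.68 and 3.54 in 8HQ, 2.07, 1.93 and 1.98 in FAC and 2.84, 3.04 and 3.24 in 8HQ_FAC. The FAC libraries were the lowest and overlapped no other group; the 8HQ_FAC libraries lay between them and DMSO. With FAC it fell by 44% in FPKM (log2 change -0.60, SE 0.06, adjusted p = 8.2e-07), the largest fall of any member in that comparison, with -0.64 to -0.56 under the other scalings. From DMSO to 8HQ_FAC its log2 change of -0.17 (adjusted p = 0.0128) turned to 0.24 with quantile normalization, 0.24 with median centring and 0.46 after removing the length trend, was -0.42 with equal sums, and was no longer called without DMSO replicate 3 (-0.13) or 8HQ_FAC replicate 1 (-0.14).

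ATF6, the sensor that is cleaved in the Golgi, stood at 9.73, 9.45 and 9.55 FPKM in DMSO, 9.0, 9.25 and 9.27 in 8HQ, 8.08, 7.65 and 7.97 in FAC and 8.06, 7.2 and 6.82 in 8HQ_FAC. Both groups with FAC lay below DMSO and 8HQ without overlap. With FAC it fell by 17.5% (log2 change -0.25, SE 0.05, adjusted p = 0.000767). In 8HQ_FAC the log2 change from DMSO was -0.34 as deposited, but 0.06, 0.08 and 0.27 with quantile normalization, median centring and the length trend removed, and -0.63 with equal sums. ATF6B, its close relative, stood at 31.1, 33.4 and 31.7 in DMSO, 34.1, 33.8 and 33.4 in 8HQ, 25, 26.7 and 25.6 in FAC and 30.7, 32.8 and 31.9 in 8HQ_FAC. Its FAC libraries were the lowest, without overlap, and its 8HQ_FAC libraries overlapped DMSO. With FAC ATF6B fell by 19.7% (log2 change -0.31, SE 0.04, adjusted p = 7.43e-06), and from DMSO to 8HQ_FAC it was not called as deposited (-0.01, 95% interval -0.09 to 0.07). It was called higher with median centring (0.41) or without the length trend (0.09), and lower with equal sums (-0.33).

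**Figure D2:**
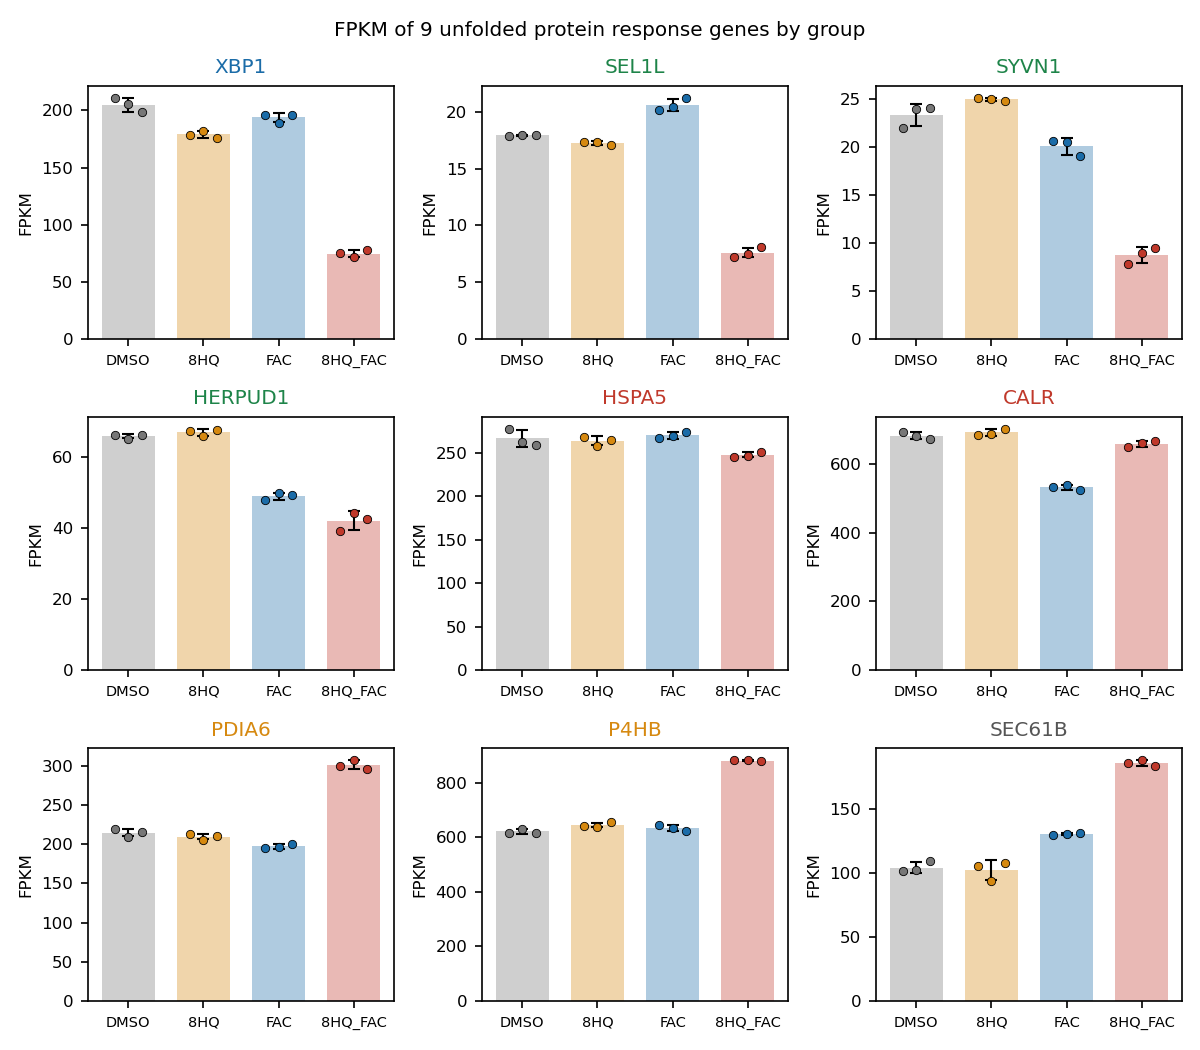
FPKM of 9 members by group, with bars for the mean, error bars for 1 SD and points for the 3 libraries; every axis starts at 0. XBP1, SEL1L and SYVN1 are lowest in 8HQ_FAC, CALR is lowest in FAC, HERPUD1 is lower in both groups with FAC, HSPA5 differs little, and PDIA6, P4HB and SEC61B are highest in 8HQ_FAC as deposited.

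Among the chaperones, HSPA5 (BiP, the main ER chaperone of the HSP70 family and the usual readout of the pathway) changed little as deposited. It stood at 278, 263 and 259 FPKM in DMSO, 268, 258 and 265 in 8HQ, 268, 269 and 275 in FAC and 246, 247 and 252 in 8HQ_FAC. The first 3 groups overlapped and the 8HQ_FAC libraries lay just below them. With 8HQ the log2 change was -0.02 (95% interval -0.07 to 0.04) and with FAC 0.02 (-0.04 to 0.08), neither called, except FAC with median centring (0.07). From DMSO to 8HQ_FAC it fell by 7.02% (log2 change -0.10, SE 0.03, adjusted p = 0.0024), but lay 0.13 above the median and turned to 0.31 with median centring and 0.20 after removing the length trend. Quantile normalization gave -0.58 and equal sums -0.43.

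FAC lowered 4 of the 9 chaperone and co-chaperone genes and raised 1, CANX, where 29.2% of all genes were lower and 24.8% higher. HYOU1, a nucleotide exchange factor of BiP and the carrier of element II matches shown above, stood at 80.4, 81.7 and 82.6 FPKM in DMSO, 83.9, 82.2 and 84.5 in 8HQ, 60.2, 61.8 and 60.6 in FAC and 61, 63 and 63.3 in 8HQ_FAC. Both groups with FAC lay well below the others without overlap. With FAC it fell by 25.4% (log2 change -0.42, SE 0.03, adjusted p = 8.34e-09); from DMSO to 8HQ_FAC the log2 change was -0.38 as deposited but 0.04 with median centring, -0.01 after removing the length trend, -0.55 with quantile normalization and -0.70 with equal sums.

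CALR, the soluble lectin chaperone calreticulin, stood at 692, 682 and 672 FPKM in DMSO, 685, 689 and 702 in 8HQ, 532, 539.9 and 524 in FAC and 648, 662 and 666 in 8HQ_FAC. Its FAC libraries lay below all others, and the 8HQ_FAC libraries lay just below DMSO. It fell with FAC from 682 ± 10.2 to 532 ± 7.77 (log2 change -0.36, SE 0.02, adjusted p = 4.25e-09). In 8HQ_FAC the log2 change from DMSO was small as deposited (-0.05), -0.67 with quantile normalization, -0.38 with equal sums, -0.15 after removing the length trend and 0.37 with median centring, and as deposited it lost its call without DMSO replicate 1 or 2, 8HQ replicate 1, or 8HQ_FAC replicate 1 or 2 (-0.04 to -0.05). HSP90B1, the ER member of the HSP90 family, stood at 629, 593 and 583 FPKM in DMSO, 586, 578 and 587 in 8HQ, 483, 510.4 and 512 in FAC and 668, 689.7 and 688 in 8HQ_FAC. FAC libraries lay below and 8HQ_FAC libraries above all others. It went from 602 ± 24.3 in DMSO to 502 ± 16.3 in FAC (log2 change -0.26, SE 0.03, adjusted p = 4.17e-06). Its 8HQ_FAC log2 change from DMSO was 0.18 as deposited and -0.44 to 0.60 under the other scalings, below 0 with quantile normalization and equal sums. HSP90B1 and PDIA3 have annotated pseudogenes, to which reads could have been split.

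DNAJB11, a J-domain partner of BiP, stood at 69.9, 65.9 and 62.5 FPKM in DMSO, 64.7, 62.9 and 61.6 in 8HQ, 58.3, 57.7 and 57.8 in FAC and 85.6, 80.6 and 82 in 8HQ_FAC. The FAC libraries were the lowest and the 8HQ_FAC libraries the highest, and neither overlapped DMSO. The fall with FAC (log2 change -0.19, SE 0.04, adjusted p = 0.000734) was called under all 5 scalings; the 8HQ_FAC log2 change of 0.32 became -0.0025 with equal sums and 0.74 with median centring. DNAJC3, a co-chaperone also known as p58IPK, stood at 11.1, 11 and 10.6 in DMSO, 11, 11.2 and 10.3 in 8HQ, 11.3, 11.1 and 11.3 in FAC and 6.39, 6.32 and 7.02 in 8HQ_FAC. Its 8HQ_FAC libraries lay below all the others, which overlapped one another. From DMSO to 8HQ_FAC it fell by 39.7% (log2 change -0.65, SE 0.05, adjusted p = 2.25e-09), with -0.94 to -0.17 under the other scalings.

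DNAJB9, a J-domain protein induced through XBP1 and IRE1, was low. It stood at 6.11, 5.76 and 5.72 FPKM in DMSO, 6.39, 7.44 and 6.57 in 8HQ, 5.69, 5.65 and 6.18 in FAC and 3.63, 4.68 and 4.91 in 8HQ_FAC. The 8HQ libraries were the highest and did not overlap DMSO, although the change was not called (0.18, 95% interval 0.01 to 0.35, adjusted p = 0.22). In 8HQ_FAC its log2 change from DMSO was -0.35 (adjusted p = 0.000757) as deposited, 0.09 with quantile normalization, 0.07 with median centring and -0.62 with equal sums. CANX, the membrane-bound lectin chaperone calnexin, stood at 176, 169.7 and 171 in DMSO, 173, 173 and 171 in 8HQ, 181, 185 and 187 in FAC and 174, 180.5 and 177 in 8HQ_FAC. Its FAC libraries were the highest, without overlap with DMSO, but the rise was small (log2 change 0.10, SE 0.02, adjusted p = 0.00379) and not called with quantile normalization or equal sums. In 8HQ_FAC CANX overlapped DMSO and was not called (0.04), except without DMSO replicate 1 (0.06); it was -0.37 and -0.28 with quantile normalization and equal sums, and 0.46 and 0.38 with median centring and the length trend removed. SDF2L1, a partner of BiP complexes in the ER, stood at 19, 18.8 and 19.5 in DMSO, 20.7, 19.3 and 21.6 in 8HQ, 22.2, 18.2 and 17.9 in FAC and 19.8, 22.3 and 20.4 in 8HQ_FAC. It was called in none of the comparisons as deposited, and in 8HQ_FAC its 0.12 against DMSO was called only when FAC replicate 1 or the groups not compared were left out, or under the other scalings, where it ranged from -0.40 to 0.53.

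The secreted ER stress proteins parted with FAC. MANF, a neurotrophic factor released under ER stress, stood at 62.2, 60.4 and 61.2 FPKM in DMSO, 56.6, 58.2 and 59.1 in 8HQ, 68.8, 67.8 and 66.9 in FAC and 71.9, 72.5 and 68.6 in 8HQ_FAC. Its 8HQ libraries were the lowest and the groups with FAC the highest, none overlapping DMSO, and the FAC rise was called (log2 change 0.14, SE 0.03, adjusted p = 0.00082). In 8HQ_FAC its log2 change from DMSO of 0.21 became -0.11 with equal sums, -0.01 after removing the length trend and 0.63 with median centring. CRELD2, a secreted ER stress protein with EGF-like domains, stood at 11.3, 11.4 and 11.9 in DMSO, 11.3, 10.3 and 10.8 in 8HQ, 8.67, 8.67 and 8.59 in FAC and 12.3, 11.9 and 11.5 in 8HQ_FAC. The FAC libraries were the lowest, without overlap, and the 8HQ_FAC libraries overlapped DMSO. With FAC it fell by 24.9% (log2 change -0.38, SE 0.04, adjusted p = 3.3e-06), and in 8HQ_FAC its log2 change from DMSO was 0.04 as deposited and -0.26 to 0.46 under the other scalings.

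The disulfide isomerases form and rearrange disulfide bonds in the ER. As deposited, PDIA3, PDIA4 and PDIA6 moved in opposite directions in the groups with FAC. P4HB was not called with FAC as deposited (log2 change 0.03), though it was with median centring (0.08). FAC lowered 3 of the 4 tested, PDIA3, PDIA4 and PDIA6, under all 5 scalings, where 22.7% of all genes were; in 8HQ_FAC all 4 were called higher than in DMSO as deposited, where 27.5% of all genes were, but under quantile normalization PDIA3, PDIA4 and P4HB turned and PDIA6 was not called. PDIA3 stood at 243, 236 and 228 FPKM in DMSO, 234, 229.7 and 233 in 8HQ, 202, 205 and 207 in FAC and 304, 309 and 313 in 8HQ_FAC. PDIA6 stood at 219, 209.8 and 216 in DMSO, 213, 206 and 211 in 8HQ, 195, 196 and 200.3 in FAC and 300.04, 307 and 297 in 8HQ_FAC. For both, FAC libraries lay below and 8HQ_FAC libraries above all others. With FAC PDIA3 fell by 13.1% (log2 change -0.20, SE 0.03, adjusted p = 1.28e-05), and its 8HQ_FAC log2 change of 0.39 was -0.05 with quantile normalization and 0.80 with median centring. With FAC PDIA6 fell by 8.25% (log2 change -0.12, SE 0.03, adjusted p = 0.000769), and its 8HQ_FAC log2 change was 0.49 as deposited and 0.05 to 0.90 under the other scalings.

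P4HB, the founding isomerase PDI, is also the beta subunit of collagen prolyl 4-hydroxylase. It stood at 616, 632 and 616 FPKM in DMSO, 642, 639 and 655 in 8HQ, 645, 633 and 623 in FAC and 882, 881 and 879 in 8HQ_FAC. The 8HQ_FAC libraries lay well above all others, and the log2 change from DMSO was 0.50 (SE 0.02, adjusted p = 4.77e-12) but -0.21 with quantile normalization and 0.92 with median centring. PDIA4, an isomerase with several thioredoxin-like domains, stood at 221, 222 and 216 FPKM in DMSO, 217, 220.4 and 221 in 8HQ, 192, 195 and 191 in FAC and 239, 234 and 241 in 8HQ_FAC. Here too FAC libraries lay below and 8HQ_FAC libraries above all others. It went from 219.7 ± 3.02 in DMSO to 192 ± 2.09 in FAC (log2 change -0.19, SE 0.02, adjusted p = 4.91e-06) and 238 ± 3.45 in 8HQ_FAC, where its log2 change of 0.12 turned to -0.32 with quantile normalization and -0.21 with equal sums and was 0.53 with median centring.

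Of the 8 tested ERAD genes 7 were called lower in 8HQ_FAC than in DMSO and 0 higher, and 5 of the 7, SEL1L, SYVN1, EDEM3, EDEM1 and HERPUD1, were called lower under all 5 scalings. Of all tested genes 56.7% were lower as deposited and 27.4% under all 5 scalings. The median transcript of the 8 was 5030 bases long against 3614 for all tested genes, so the values with the length trend removed are among those given below. SYVN1 (HRD1), the ubiquitin ligase at the core of ERAD, stood at 22, 24 and 24.1 FPKM in DMSO, 25.1, 25 and 24.8 in 8HQ, 20.6, 20.5 and 19.1 in FAC and 7.86, 9.0 and 9.47 in 8HQ_FAC. SEL1L, its adaptor, stood at 17.9, 17.9 and 18 in DMSO, 17.4, 17.4 and 17.1 in 8HQ, 20.1, 20.5 and 21.2 in FAC and 7.25, 7.5 and 8.08 in 8HQ_FAC. For both, the 8HQ_FAC libraries lay far below every other library. SYVN1 fell by 62.4% (log2 change -1.32, SE 0.06, adjusted p = 5.6e-12), -1.09 relative to the median and -1.62 to -0.90 under the other scalings. SEL1L fell by 57.5% (log2 change -1.14, SE 0.04, adjusted p = 7.13e-13), -0.91 relative to the median and -1.43 to -0.50 under the other scalings. With FAC the partners parted: SEL1L rose from 17.9 ± 0.0479 to 20.6 ± 0.548 (log2 change 0.19, SE 0.04, adjusted p = 0.000912), and SYVN1 fell from 23.4 ± 1.16 to 20.1 ± 0.848 (log2 change -0.21, SE 0.06, adjusted p = 0.00555).

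The EDEM proteins are mannosidases or mannosidase-like proteins that mark misfolded glycoproteins for ERAD. EDEM3 stood at 3.52, 3.91 and 3.59 FPKM in DMSO, 3.7, 3.94 and 3.71 in 8HQ, 4.76, 5.05 and 5.14 in FAC and 1.61, 1.55 and 1.85 in 8HQ_FAC. The FAC libraries were the highest and the 8HQ_FAC libraries the lowest, both without overlap. It rose with FAC by 35.7% (log2 change 0.36, SE 0.06, adjusted p = 0.00012) and in 8HQ_FAC it fell by 54.6% (log2 change -0.81, SE 0.06, adjusted p = 2.92e-09), with -1.03 to -0.23 under the other scalings. EDEM1 stood at 9.84, 8.87 and 9.32 FPKM in DMSO, 8.96, 9.59 and 9.05 in 8HQ, 9.12, 9.4 and 8.96 in FAC and 5.07, 5.52 and 6.22 in 8HQ_FAC. The 8HQ_FAC libraries lay below all the others. It fell from 9.34 ± 0.484 in DMSO to 5.61 ± 0.577 in 8HQ_FAC (log2 change -0.65, SE 0.06, adjusted p = 4.83e-08; -0.93 to -0.12 under the other scalings) and was not called with FAC (-0.02, 95% interval -0.15 to 0.10).

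HERPUD1, an ER membrane protein that organises the HRD1 complex and carries element II, was lower in both groups with FAC. It stood at 66.1, 65.2 and 66.1 FPKM in DMSO, 67.4, 65.8 and 67.4 in 8HQ, 47.8, 49.8 and 49.2 in FAC and 39.1, 44.3 and 42.6 in 8HQ_FAC. The libraries with FAC lay below all those without it, and the 8HQ_FAC libraries below the FAC libraries. It fell by 25.6% with FAC (log2 change -0.42, SE 0.04, adjusted p = 3.68e-07) and fell by 36.2% with both agents (log2 change -0.64, SE 0.04, adjusted p = 3.18e-10; -0.96 to -0.22 under the other scalings). From FAC to 8HQ_FAC the log2 change of HERPUD1 was -0.22 as deposited, -0.27 with quantile normalization and -0.50 with equal sums. It turned to 0.15 with median centring and was -0.06, not called, with the length trend removed. The derlins, channel components of retrotranslocation, were lower in 8HQ_FAC as deposited. DERL1 went from 15.5 ± 0.758 in DMSO to 12.4 ± 0.604, a log2 change of -0.31 that turned to 0.11 with median centring and 0.17 after removing the length trend and was -0.61 with equal sums. DERL2 went from 8.58 ± 0.227 to 6.54 ± 0.632, -0.35 that turned to 0.08 and 0.07 with quantile normalization and median centring and was -0.63 with equal sums. With FAC neither was called as deposited, though both were with equal sums (-0.13 for DERL1 and -0.18 for DERL2) and without FAC replicate 1 (-0.14 and -0.19), and DERL2 also without 8HQ replicate 3 or 8HQ_FAC replicate 3 (-0.15). SELENOS, a selenoprotein that links derlins to the p97 ATPase, stood at 19.2, 17.1 and 20.6 FPKM in DMSO, 17.4, 19.2 and 21.1 in 8HQ, 18, 17.4 and 16.2 in FAC and 19, 17.9 and 16.9 in 8HQ_FAC. All 4 groups overlapped, and it was called in none of the 5 comparisons as deposited. Against DMSO it was called with FAC when DMSO replicate 2 was left out (-0.20) and in 8HQ_FAC under equal sums (-0.38) and median centring (0.34). From FAC to 8HQ_FAC it was called under equal sums (-0.22), quantile normalization (0.26) and median centring (0.43), and likewise in the interaction (-0.23, 0.24 and 0.41).

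All 4 genes of translocation, export and ER calcium rose with FAC, where 24.8% of all genes did. In 8HQ_FAC SEC61B was higher and the other 3 lower than in DMSO as deposited. Of all tested genes 27.5% were higher and 56.7% lower in that comparison. Under every scaling SEC61B was called higher and WFS1 lower, while SEC61A1 and SEC24D turned to 0.17 and 0.08 with median centring. SEC61B, the beta subunit of the translocon channel, stood at 101, 102 and 109 FPKM in DMSO, 106, 93.5 and 108 in 8HQ, 129.6, 130.3 and 131 in FAC and 186, 188 and 184 in 8HQ_FAC. The FAC libraries lay above those without FAC and the 8HQ_FAC libraries above FAC, without overlap. It rose by 24.9% with FAC (log2 change 0.32, SE 0.04, adjusted p = 2.46e-05) and by 78.3% with both agents (log2 change 0.83, SE 0.04, adjusted p = 7.4e-11), the largest rise of any member as deposited, and it was 0.19 to 1.25 under the other scalings, lowest with the length trend removed. Its transcript, of 687 bases, is the shortest of the members. SEC61A1, the channel's alpha subunit, stood at 122, 125 and 129 FPKM in DMSO, 129, 122 and 126 in 8HQ, 136, 135 and 136 in FAC and 105, 107 and 105 in 8HQ_FAC. Its FAC libraries lay above and its 8HQ_FAC libraries below all others. It went from 125 ± 3.55 in DMSO to 136 ± 0.657 in FAC (log2 change 0.12, SE 0.03, adjusted p = 0.00244, not called with quantile normalization) and 106 ± 1.6 in 8HQ_FAC, where -0.24 turned to 0.17 with median centring and 0.03 after removing the length trend and was -0.57 with equal sums.

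SEC24D, a cargo adaptor of the COPII coat that carries proteins out of the ER, was the member that rose most with FAC. It stood at 16.3, 14.7 and 14.9 FPKM in DMSO, 16.1, 16.4 and 15.6 in 8HQ, 22.9, 23 and 22.8 in FAC and 12.1, 11.8 and 11.7 in 8HQ_FAC. The FAC libraries were the highest and the 8HQ_FAC libraries the lowest, without overlap. With FAC it rose by 49.5% (log2 change 0.55, SE 0.04, adjusted p = 3.5e-08). In 8HQ_FAC the log2 change from DMSO was -0.34 as deposited, 0.08 with median centring and -0.64 with equal sums, and not called with quantile normalization or the length trend removed. WFS1, wolframin, an ER membrane protein that affects ER calcium and ATF6 turnover, stood at 28, 28.1 and 28.6 in DMSO, 27.5, 27.5 and 29.1 in 8HQ, 30.7, 31 and 30.6 in FAC and 15.5, 15.5 and 15.4 in 8HQ_FAC. The 8HQ_FAC libraries lay far below all others and the FAC libraries slightly above. It rose by 8.91% with FAC (log2 change 0.12, SE 0.03, adjusted p = 0.00518) and fell by 45.3% in 8HQ_FAC (log2 change -0.83, SE 0.03, adjusted p = 1.79e-12), -0.60 relative to the median and -1.14 to -0.41 under the other scalings.

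8HQ_FAC was also compared with FAC, to see what 8HQ did to cells that had FAC, and the difference between its effect with and without FAC was tested as an interaction. These comparisons share libraries with those above and with each other, so their values are given side by side and not as support. From FAC to 8HQ_FAC 15 of 31 members were called lower and 11 higher, where 56.0% of all tested genes were lower and 26.8% higher. In the interaction 13 were lower and 12 higher, where 53.3% of all genes were lower and 23.4% higher. The median change was -0.06 for the members and -0.22 for all genes from FAC to 8HQ_FAC, and -0.04 and -0.24 in the interaction. The share of calls that were higher from FAC to 8HQ_FAC was 42.3% for the members and 32.4% for all genes as deposited, 37.9% and 49.7% with quantile normalization, 72.4% and 62.6% with median centring, 28.6% and 15.4% with equal sums, and 55.6% and 51.7% after removal of the length trend. In the interaction these shares were 48.0% and 30.5%, 38.5% and 49.1%, 72.4% and 62.3%, 28.6% and 13.8%, and 60.0% and 51.5%.

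Under all 5 scalings 8 members were called lower and 5 higher from FAC to 8HQ_FAC (26.4% and 11.7% of all genes), and 7 lower and 5 higher in the interaction (23.3% and 9.65%). Those lower in both were XBP1, DNAJC3, SEL1L, SYVN1, EDEM3, SEC24D and WFS1, and EDEM1 was lower from FAC to 8HQ_FAC (-0.62). Those higher in both were ERN1, PDIA3, PDIA6, DNAJB11 and CRELD2. SEL1L changed by -1.33 from FAC to 8HQ_FAC (SE 0.04) and by -0.05 from DMSO to 8HQ, an interaction of -1.28 (SE 0.06, adjusted p = 5.72e-11). XBP1 changed by -1.36 with FAC present and -0.19 without, an interaction of -1.17 (SE 0.04, adjusted p = 1.35e-11). PDIA6 changed by 0.61 and -0.04, an interaction of 0.64 (SE 0.04, adjusted p = 5.05e-10). ERN1 changed by 0.43 and 0.00, an interaction of 0.43 (SE 0.08, adjusted p = 0.000262). Among the 4 groups as deposited, the FAC libraries were the lowest for ERN1, PDIA3, PDIA6, DNAJB11 and CRELD2. For PDIA3, PDIA6 and DNAJB11 the 8HQ_FAC libraries were also the highest. The 8HQ_FAC libraries were the lowest for XBP1, DNAJC3, SEL1L, SYVN1, EDEM3, SEC24D and WFS1. For SEL1L, EDEM3, SEC24D and WFS1 the FAC libraries were also the highest.

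**Figure D3:**
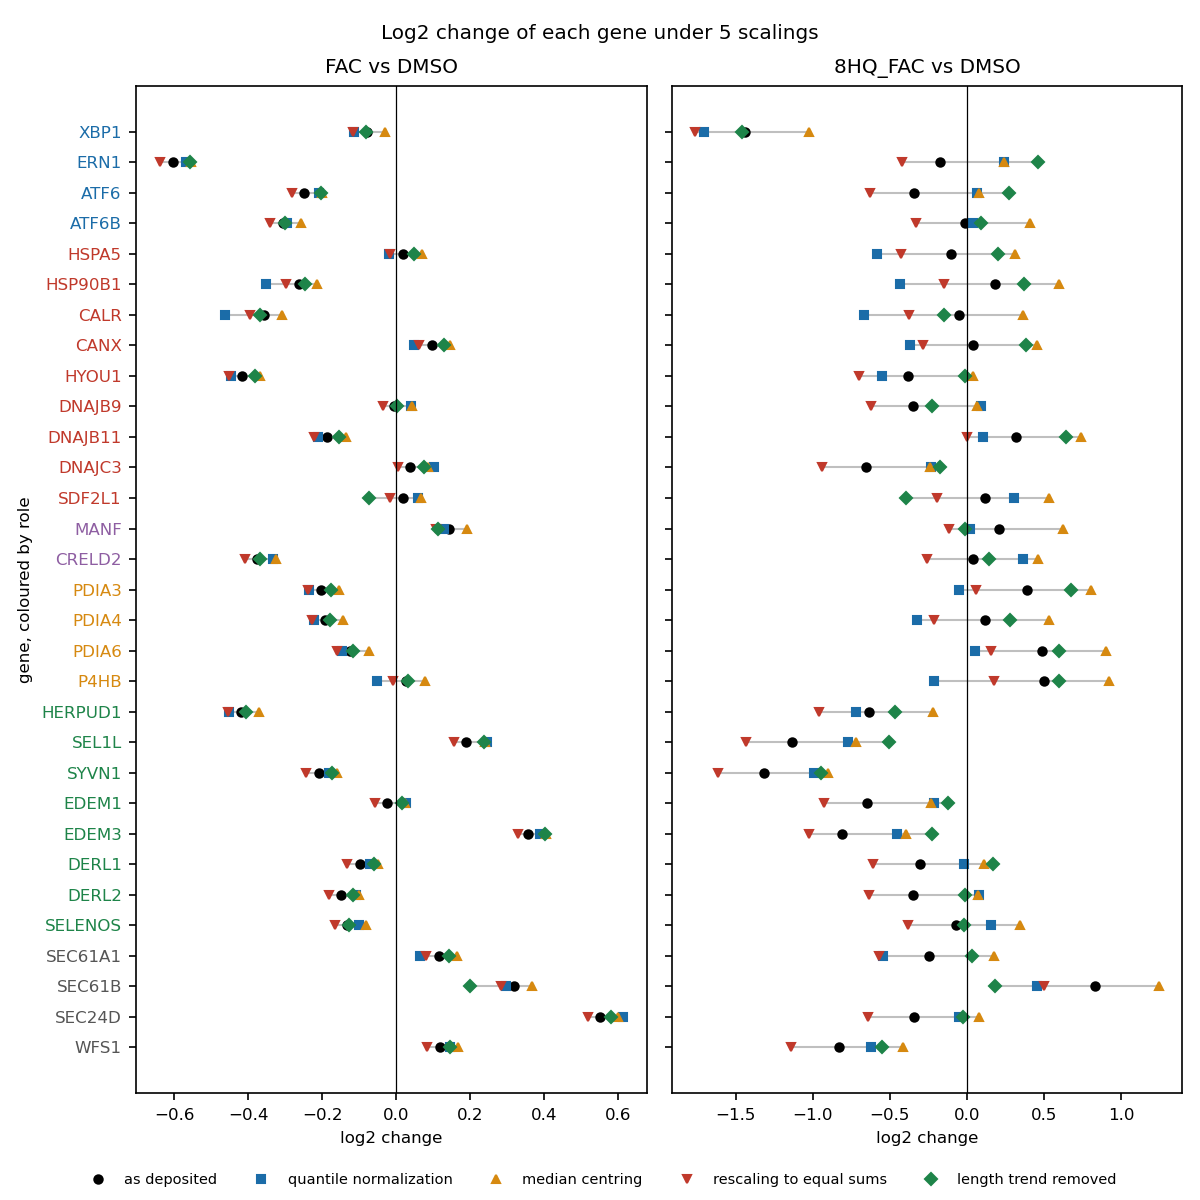
Log2 change of the 31 tested members from DMSO to FAC (left) and from DMSO to 8HQ_FAC (right) under 5 scalings, as deposited (black circles), quantile normalization (blue squares), median centring (orange triangles), equal sums (red triangles) and length trend removed (green diamonds). In FAC the 5 values of a gene lie close together, as for ERN1 at -0.60 and SEC24D at 0.55 as deposited; in 8HQ_FAC they spread widely and cross 0 for most chaperones, and stay on the lower side for XBP1, SYVN1 and SEL1L and on the higher side for SEC61B.

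Length and change were plotted together for 8HQ_FAC. ERN1, ATF6, SEL1L and EDEM3 have the longest transcripts among the members, at 7876, 7496, 7925 and 6898 bases, while XBP1, which fell most, has a transcript of 2173 bases, at percentile 21.4 of the tested genes by length. Across the members Spearman's rho of length with change was -0.54 for 8HQ_FAC against DMSO, -0.01 for FAC against DMSO and -0.07 for 8HQ against DMSO. The lengths are those of the longest annotated transcript, and the length of the models behind the FPKM is not given in the sources used here.

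**Figure D4:**
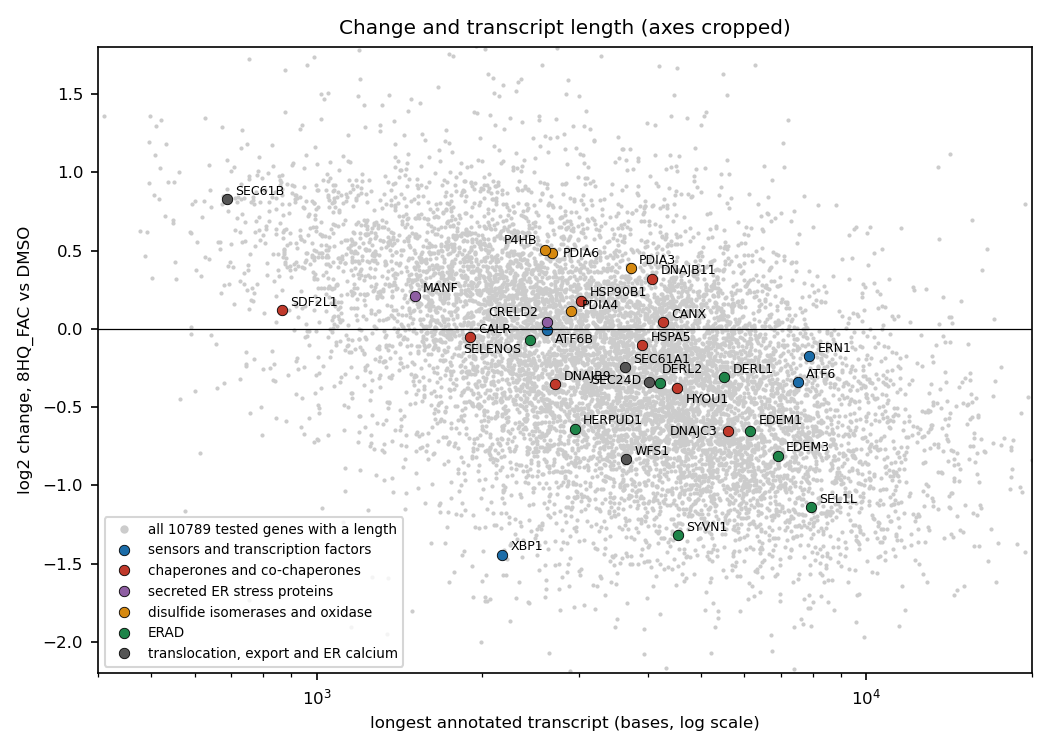
Log2 change from DMSO to 8HQ_FAC (vertical) against the longest annotated transcript in bases (horizontal, log scale) for 10789 tested genes in grey and the 31 members coloured by role; 84 genes lie outside the axes. The cloud slopes down with length (rho -0.49), SEC61B lies at its short end at 0.83, SEL1L at the long end at -1.14, and XBP1 at -1.44 lies below most genes of its length.

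The 11 members whose promoters carry an ER stress element of either kind were called in both directions. Of the 10 that were tested, 7 were called lower and 1 higher with FAC, within -0.42 (HYOU1 and HERPUD1) and 0.10 (CANX) on the log2 scale, beside the 29.2% and 24.8% of all genes given above. From DMSO to 8HQ_FAC 5 were lower and 2 higher, from -1.44 for XBP1 to 0.49 for PDIA6, beside 56.7% and 27.5% of all genes. Of these calls only those of XBP1 and HERPUD1 held under all 5 scalings. With 8HQ only XBP1 was called. SYVN1, SEL1L, EDEM3 and WFS1, which fell most after XBP1, had no match of the 3 elements in their windows, which says only that these letters are not there.

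Other genes of the pathway were counted in 6 lists, to be read beside the shares of all tested genes: 29.2% lower and 24.8% higher with FAC, and 56.7% and 27.5% in 8HQ_FAC. The genes of these lists for which values are given kept their direction in 8HQ_FAC against DMSO under all 5 scalings, though the size of the change varied with the scaling. In the PERK arm, of 14 tested genes 13 (92.9%) were lower and 0 higher with FAC, and in 8HQ_FAC 9 (64.3%) were lower and 5 (35.7%) higher than in DMSO (10 and 3 with equal sums, 5 and 8 with median centring). ATF3, a stress-induced transcription factor, went from 7.79 ± 0.339 FPKM in DMSO to 2.32 ± 0.39 in FAC and 53.7 ± 2.54 in 8HQ_FAC (log2 change from DMSO -1.41 and 2.64). TRIB3, a pseudokinase induced by ATF4 and CHOP, went from 53 ± 0.199 to 34.1 ± 0.373 and 20.4 ± 1.8. VLDLR, a lipoprotein receptor induced by ATF4, went from 6.59 ± 0.457 to 3.92 ± 0.23 and 1.87 ± 0.0708. These 3 changes were called in both comparisons. The 5 genes called higher in 8HQ_FAC as deposited were ATF3, EIF2S1, DDIT3 (CHOP), PPP1R15A and SESN2. The 9 called lower included EIF2AK3 (PERK), ATF4 and ASNS. CHAC1 was below the filter.

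In the list of other sensors, proteases and regulators, 11 of 14 tested genes (78.6%) were lower and 1 (7.14%) higher in 8HQ_FAC than in DMSO, and with FAC 4 (28.6%) were lower and 2 (14.3%) higher (1 higher without DMSO replicate 2 or 3 or FAC replicate 1 or 2). In 8HQ_FAC these counts ran from 13 and 0 with equal sums to 7 and 7 with median centring. CREB3L2, an ER-bound transcription factor related to ATF6, fell from 25.8 ± 0.552 in DMSO to 11.5 ± 0.161 in 8HQ_FAC (log2 change -1.11, SE 0.03, adjusted p = 2.25e-13). NFYA, a subunit of the factor that binds the CCAAT part of the element, fell from 9.68 ± 0.0697 to 5.01 ± 0.238 (log2 change -0.83, SE 0.05, adjusted p = 2.6e-10), and CREBZF, a bZIP factor, from 11.9 ± 0.264 to 6.23 ± 0.36. CREB3L1 was below the filter and ARCHEASE was not matched.

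Among 29 other ERAD factors, 17 (58.6%) were lower and 9 (31.0%) higher in 8HQ_FAC, and with FAC 8 (27.6%) were lower and 8 higher, all near the shares of all genes. In 8HQ_FAC the counts ran from 23 and 3 with equal sums to 8 and 20 with median centring. RNF139, an ER ubiquitin ligase, fell from 11.8 ± 0.621 in DMSO to 3.86 ± 0.557 in 8HQ_FAC (log2 change -1.40, SE 0.07, adjusted p = 2.33e-11). MARCHF6, another ER ligase, went from 11.7 ± 0.405 to 6.47 ± 0.323 and was not called with the length trend removed, and NPLOC4, a cofactor of the p97 ATPase, went from 44 ± 2.31 to 27.9 ± 0.82. Among 31 other ER folding factors the split was the other way as deposited, with 20 (64.5%) higher and 5 (16.1%) lower in 8HQ_FAC, and with FAC 11 (35.5%) were higher and 9 lower. In 8HQ_FAC the folding factors ran from 14 higher and 11 lower with equal sums to 26 and 4 with median centring. PRDX4, the ER peroxiredoxin, rose from 70.4 ± 1.98 in DMSO to 84.1 ± 1.06 in FAC and 131 ± 3.43 in 8HQ_FAC (log2 change 0.89, SE 0.03, adjusted p = 9.28e-13). TXNDC12, a thioredoxin-like ER protein, rose from 51 ± 0.846 in DMSO to 84.4 ± 1.9 in 8HQ_FAC, while TXNDC11, a larger thioredoxin domain protein, fell from 36.5 ± 1.11 to 20.9 ± 0.956.

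Of 31 tested genes of the translocon, signal peptidase and oligosaccharyltransferase, 19 (61.3%) were higher and 8 (25.8%) lower in 8HQ_FAC as deposited, and with FAC 12 (38.7%) were higher and 1 (3.23%) lower (2 lower without DMSO replicate 3). In 8HQ_FAC the counts ran from 11 higher and 15 lower with equal sums to 30 and 0 with median centring. OST4, a small subunit of the oligosaccharyltransferase, rose from 204 ± 2.43 in DMSO to 265 ± 5.26 in FAC and 410.0 ± 14.3 in 8HQ_FAC (log2 change 1.0, SE 0.03, adjusted p = 1.25e-13). The log2 change of OST4 was 0.25 to 1.42 under the other scalings. DDOST and RPN2, other subunits of the same enzyme, rose by 0.68 and 0.54 on the log2 scale in 8HQ_FAC as deposited. Under the other scalings DDOST rose by 0.22 to 1.09 and RPN2 by 0.05 to 0.96. TUSC3 was below the filter. Of 25 genes of the COPII coat, cargo receptors and KDEL receptors, 14 (56.0%) were higher and 1 (4.0%) lower with FAC, and 12 (48.0%) were higher and 12 lower in 8HQ_FAC, or 6 and 16 with equal sums and 18 and 4 with median centring. SEC24B, a COPII adaptor related to SEC24D, fell from 13 ± 0.294 in DMSO to 9.7 ± 0.3 in FAC and 3.05 ± 0.166 in 8HQ_FAC (log2 change -1.79, SE 0.05, adjusted p = 7.14e-14). SEC24A fell in 8HQ_FAC from 15.8 ± 0.302 to 7.57 ± 0.485, and KDELR1, which returns chaperones to the ER, rose from 167 ± 1.53 to 266 ± 1.2. The log2 change of KDELR1 was 0.67 as deposited and 0.20 to 1.08 under the other scalings. With 8HQ 0 genes were called in 5 of the 6 lists in limma (at an unadjusted p under 0.05 there were 4 of the PERK arm, 1 of the regulators, 4 of the folding factors, 6 of the ERAD factors and 5 of the COPII list). In the translocon list SRP9 was called lower, a call lost without DMSO replicate 1 or any 8HQ replicate. Leaving out FAC replicate 1 or DMSO replicate 3 gave 1 gene called in the PERK arm and in the folding list, respectively, and leaving out DMSO replicate 3 or 8HQ replicate 2 gave 2 and 1 among the ERAD factors.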

How the data were processed

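RNA from 12 libraries of HepG2 cells was analysed from gene values that the authors deposited as FPKM. An aligner, Bowtie 0.12.2, and the builds mm8 and mm9 are named, per the submitters' processing notes. Since both builds are of the mouse and the gene table is human, no coordinate of this text comes from them. Not given in the sources used here were the quantifier, annotation, strand setting, human build and mapped totals. Depth is known only relative to DMSO replicate 1, estimated from ratios of low values, and no counting intervals were computed. Of 20030 genes, 19741 GeneIDs matched the RefSeq gene table, 27 symbols that had become dates were restored, and no pair of libraries was identical.

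Groups came from the labels. The fit took genes that reached 1 FPKM in 3 or more libraries, and ran on log2(FPKM + 1) with limma 3.58.1 (R 4.3.3), 4 group means over all 12 libraries and a variance trend, two-sided, with Benjamini-Hochberg adjustment in each of 5 comparisons. The procedure was tested on simulated data with known changes in some genes. Those data held no shift of whole libraries and no trend with length, so the test does not bear on the choice of scaling. Same-numbered libraries did not deviate together, so the numbers were not used as pairs. Lengths were the longest GENCODE 29 transcript of a gene. Promoters were RefSeq windows of GRCh38.p14, and for 30 of 30 genes the printed end of the window lay in an annotated transcript. Further software was Python 3.11.15, pandas 2.3.3, numpy 2.4.6, scipy 1.17.1 and matplotlib 3.10.9.

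Values in every library are given for the sensors, HSPA5, HERPUD1 and DNAJB9, and for every member of a count of 5 or fewer. They are also given for the 6 largest rises and the 6 largest falls in 8HQ_FAC against DMSO among members called without overlap. The same holds for 3 and 3 in each other comparison. From each of the 6 pathway lists, values are given for up to 3 genes with the smallest adjusted p. The members, the lists, the elements and the tests were chosen with earlier results of these data known. The alternatives were 4 other scalings, no filter or one at 5 FPKM, a pseudocount of 0.1, no variance trend, only the 2 groups compared, a replicate block, and leaving out each library in turn.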

Additional observations from a re-analysis of the deposited data

Results flagged for a closer look

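For 12 members the effect of 8HQ in the presence of FAC differed from its effect without FAC, by the interaction term of the limma model, with the same call under all 5 scalings. They were 5 higher and 7 lower of 31 members, and the same held for 9.65% and 23.3% of all genes. Each value below is the log2 change from FAC to 8HQ_FAC less that from DMSO to 8HQ. The ERAD genes SEL1L, SYVN1 and EDEM3 stood at -1.28, -1.21 and -1.20, and the transcription factor gene XBP1 at -1.17. The COPII gene SEC24D stood at -0.96, the wolframin gene WFS1 at -0.94 and the co-chaperone gene DNAJC3 at -0.68. On the other side the sensor gene ERN1 stood at 0.43, the secreted factor gene CRELD2 at 0.50, the co-chaperone gene DNAJB11 at 0.57, and the isomerase genes PDIA3 and PDIA6 at 0.61 and 0.64. All comparisons with 8HQ_FAC carry the lower depth, the higher FPKM sums and the trend with transcript length of those 3 libraries, and how far these enter the 12 values was not tested beyond the scalings.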

How the results depend on the processing

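The counts of members called changed with the scaling in the comparisons with 8HQ_FAC. Against DMSO, 5 were higher with quantile normalization, 18 higher and 8 lower with median centring, 4 higher with equal sums, and 14 higher and 11 lower with the length trend removed. Against FAC 21 were higher and 8 lower with median centring, and in the interaction 21 and 8, with 20 lower under equal sums. Of the 31 tested members, 0 changed direction under a scaling with 8HQ, 0 with FAC, 21 in 8HQ_FAC against DMSO, 17 against FAC and 16 in the interaction, counting those called as deposited or under that scaling; the cause was not tested. Values follow for 8HQ_FAC against DMSO; in the last 2 comparisons the single genes examined further were those called under all 5 scalings. With quantile normalization these log2 changes were ERN1 0.24, ATF6 0.063, HSP90B1 -0.44, CANX -0.37, PDIA3 -0.048, PDIA4 -0.32, P4HB -0.21, DNAJB9 0.094 and DERL2 0.075. With median centring they were ERN1 0.24, ATF6 0.075, ATF6B 0.41, HSPA5 0.31, CALR 0.37, DNAJB9 0.065, HYOU1 0.037, DERL1 0.11, DERL2 0.069, SEC61A1 0.17, SEC24D 0.076 and SELENOS 0.34. With equal sums they were HSP90B1 -0.15, CANX -0.28, PDIA4 -0.21, DNAJB11 -0.0025, SDF2L1 -0.19, MANF -0.11 and CRELD2 -0.26. With the length trend removed they were ERN1 0.46, ATF6 0.27, ATF6B 0.090, HSPA5 0.20, SDF2L1 -0.40, MANF -0.013, DERL1 0.17 and SEC61A1 0.034. The filters, the pseudocount, the variance trend, fits of only the 2 groups compared and leaving out each library in turn kept every count of members within 1.5 times and reversed no change of the 136 examined. Leave-one-out ended 13 calls of single genes and added 7. Using no filter ended 2 such calls and using no variance trend ended 2. Fits of only the 2 groups compared ended 1 and added 2. With the replicate block 13 members were lower with FAC, 17 in 8HQ_FAC against DMSO, 14 against FAC and 12 in the interaction, each 1 fewer than without it; the calls lost among changes of single genes were XBP1 with FAC and CALR in 8HQ_FAC against DMSO. Same-numbered libraries correlated in their deviations at -0.076 to 0.048 over 18 pairs, and 4 of 12 correlated best with their own number. Without mapped totals, the precision of low genes such as EDEM3 and ERN1 rests on the 3 libraries of a group.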
